A study of Mus musculus with 25 samples.

Results

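In primary mouse myoblasts, 2624 of 17106 Spin1 ChIP-seq peaks, 15.3% of the list, shared 1 or more bases with an H3K4me3 peak and had their centre more than 1 kb and at most 10 kb from the nearest transcription start site (TSS). TSSs were those of curated RefSeq transcripts on GRCm38 (mm10). The set was therefore chosen by peak position and by overlap with H3K4me3, and neither property is a finding about it. For comparison, 10848 Spin1 peaks with H3K4me3 lay within 1 kb of a TSS (promoter peaks) and 2149 lay over 10 kb away (distal peaks). A further 339 Spin1 peaks lay at 1 to 10 kb without H3K4me3, and 4401 H3K4me3 peaks lay at this distance without Spin1.

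The myoblasts came from the limb muscle of mice aged 10 days (strain C57BL/6 in the labels, C57BL/6 N in the study's methods), were enriched by preplating and were grown in culture. There was 1 library for a custom antibody against SPIN1, 1 for H3K4me3, whose antibody the sample label writes as H3K4me and the study's methods as H3K4me3, and 1 input library as the control for peak calling. Neither the genotype beyond the strain nor the number of mice was given, there were no replicates, and no spread between libraries can be stated. The 22 RNA-seq samples of the same series came from muscle of control and Spin1-deficient mice and were not analysed here.

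H3K4me3 is a histone mark that surrounds the start sites of active genes, where it is most often found just downstream of the TSS, over CpG-rich DNA. Spin1 is a chromatin reader that binds this mark through its Tudor-like domains. H3K4me3 away from an annotated start site can mark an extended promoter domain, a start site missing from the annotation or an active enhancer, and the peak lists do not tell these apart.

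The peaks fell into 3 arrangements. In 710 (27.1%, 95% Wilson interval 25.4% to 28.8%), the Spin1 peak itself contained a curated TSS and its centre was more than 1 kb away because the peak was broad. These are called TSS-spanning peaks. In 1011 (38.5%, 36.7% to 40.4%), the Spin1 peak contained no TSS but the H3K4me3 peak over it did, so that Spin1 lay on the flank of a promoter domain. These are called flank peaks. In 903 (34.4%, 32.6% to 36.3%), neither peak contained a curated TSS, and these are called separate peaks. The intervals cover counting error only and treat peaks as independent, although 273 of the 2298 H3K4me3 peaks involved held 2 to 5 members of the set.

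The following sequences are the central 300 bases of single peaks, printed to show how the base composition and the motif content of the set vary. They are from GRCm38, on the plus strand, and lie in introns or between genes. Capitals mark matches on either strand to the E-box CAGCTG, which myogenic bHLH factors bind, to TGANTCA, the site of AP-1 (Fos and Jun), and to GGAATG, the core site of TEAD factors. The first group comes from peaks picked by score within 6 gene lists described further on, 1 for each list, whose central bases touched no exon.
Fgfr1, chr8:25520309-25520608: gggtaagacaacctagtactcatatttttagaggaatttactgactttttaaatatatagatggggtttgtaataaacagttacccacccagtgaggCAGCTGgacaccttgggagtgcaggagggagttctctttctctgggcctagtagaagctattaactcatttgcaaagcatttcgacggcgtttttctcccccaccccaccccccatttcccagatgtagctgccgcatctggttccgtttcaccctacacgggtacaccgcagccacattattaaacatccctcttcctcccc
Pgm1, chr4:99931290-99931589: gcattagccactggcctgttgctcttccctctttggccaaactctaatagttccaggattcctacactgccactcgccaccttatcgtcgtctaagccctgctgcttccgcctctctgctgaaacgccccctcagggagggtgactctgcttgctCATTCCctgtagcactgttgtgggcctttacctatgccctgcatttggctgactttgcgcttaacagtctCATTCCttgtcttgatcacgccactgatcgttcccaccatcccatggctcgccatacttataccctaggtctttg
Gdnf, chr15:7811707-7812006: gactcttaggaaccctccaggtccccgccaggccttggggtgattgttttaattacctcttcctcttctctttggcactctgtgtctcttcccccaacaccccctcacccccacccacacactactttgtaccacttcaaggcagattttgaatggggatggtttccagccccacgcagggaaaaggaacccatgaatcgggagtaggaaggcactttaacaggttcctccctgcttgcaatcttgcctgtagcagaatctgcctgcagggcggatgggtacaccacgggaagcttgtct
Myh9, chr15:77839556-77839855: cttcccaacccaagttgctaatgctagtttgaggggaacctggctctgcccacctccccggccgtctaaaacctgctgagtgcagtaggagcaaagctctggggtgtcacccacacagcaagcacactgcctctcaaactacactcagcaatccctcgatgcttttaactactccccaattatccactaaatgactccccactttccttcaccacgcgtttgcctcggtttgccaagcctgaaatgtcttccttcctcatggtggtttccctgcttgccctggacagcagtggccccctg
Runx1, chr16:92694963-92695262: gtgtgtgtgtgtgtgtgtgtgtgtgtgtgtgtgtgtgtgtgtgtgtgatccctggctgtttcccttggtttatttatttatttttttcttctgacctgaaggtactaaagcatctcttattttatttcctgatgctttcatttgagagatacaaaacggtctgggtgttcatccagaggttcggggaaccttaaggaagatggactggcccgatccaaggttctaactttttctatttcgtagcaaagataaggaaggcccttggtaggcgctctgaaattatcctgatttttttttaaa
Myc, chr15:61986871-61987170: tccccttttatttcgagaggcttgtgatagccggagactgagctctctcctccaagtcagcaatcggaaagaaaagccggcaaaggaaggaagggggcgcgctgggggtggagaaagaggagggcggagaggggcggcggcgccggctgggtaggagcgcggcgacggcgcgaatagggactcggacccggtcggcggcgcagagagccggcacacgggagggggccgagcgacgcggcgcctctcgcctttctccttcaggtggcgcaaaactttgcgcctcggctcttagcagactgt

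The centre at Fgfr1 held 1 E-box, and that at Pgm1 held 2 TEAD matches. The other 4 of those shown held none. The centre at Myc stood apart in base composition, with 65.7% GC and 33 CpG dinucleotides, while the remaining 5 held 5 to 9 CpGs and had 41% to 54.3% GC. A flank peak at Lbx1, a homeobox gene of migrating limb muscle precursors, and a separate peak upstream of Bcl9l, a co-activator of Wnt signalling, were added after their values were seen, to show the other arrangements.
Lbx1, chr19:45231577-45231876: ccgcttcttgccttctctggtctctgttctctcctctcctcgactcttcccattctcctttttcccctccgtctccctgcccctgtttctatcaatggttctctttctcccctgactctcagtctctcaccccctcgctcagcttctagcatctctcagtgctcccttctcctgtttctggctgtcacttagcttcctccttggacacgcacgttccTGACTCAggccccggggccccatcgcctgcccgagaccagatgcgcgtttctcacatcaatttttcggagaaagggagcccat
Bcl9l, chr9:44479027-44479326: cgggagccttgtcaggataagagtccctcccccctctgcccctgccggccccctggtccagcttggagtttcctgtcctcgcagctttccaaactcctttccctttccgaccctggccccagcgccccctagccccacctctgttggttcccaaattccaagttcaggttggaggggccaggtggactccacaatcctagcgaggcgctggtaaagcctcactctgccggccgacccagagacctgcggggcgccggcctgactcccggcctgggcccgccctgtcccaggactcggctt

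The centre at Lbx1 had 1 AP-1 match, 12 CpGs and 56% GC. That at Bcl9l had no match, 15 CpGs and 66% GC.

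The Spin1 peaks of the set lay mainly on the gene side of the TSS. Of the 2624, 678 (25.8%, 24.2% to 27.5%) were centred upstream, and the median distance was 2522.5 bp (95% interval of the median 2425.5 to 2627). The side depended on the arrangement. Of the TSS-spanning peaks 5.35% (3.92% to 7.26%) and of the flank peaks 18.6% (16.3% to 21.1%) were centred upstream, against 50.1% of the separate peaks (46.8% to 53.3%). Between 1 and 1.5 kb, 72.1% of 696 peaks spanned a TSS and 3.74% were separate. Between 5 and 10 kb, 0.162% of 618 spanned a TSS and 82.8% were separate. These shares describe geometry that the distance limits partly set.

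**Figure D1:**
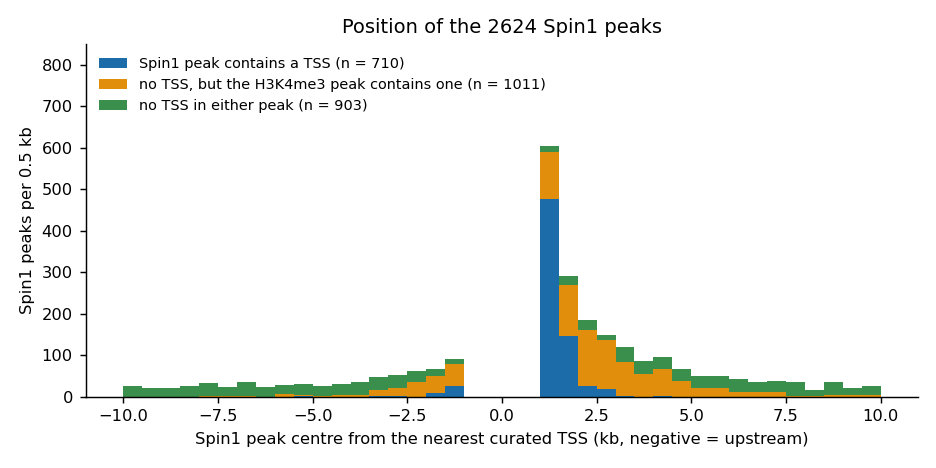
Number of Spin1 peaks of the set per 0.5 kb by signed distance of the peak centre from the nearest curated TSS, stacked by arrangement. TSS-spanning peaks are confined almost entirely to the first kilobases downstream, while separate peaks are spread over both sides, with 50.1% upstream.

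TSS-spanning peaks were asymmetric about the start site. Their upstream edge lay at a median of -618.5 bp (-670 to -569) and their downstream edge at 3265.5 bp (3201 to 3350). For promoter peaks, the same edges lay at -733 bp (-749 to -718) and 1330 bp (1319 to 1344). TSS-spanning peaks thus began nearer the TSS and ran further into the gene, which the rule on the centre favours. The H3K4me3 peaks over them were wider, with a median of 5957.5 bp against 3980.5 bp for the Spin1 peaks, and 89.9% of TSS-spanning Spin1 peaks were covered over their whole length.

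Flank peaks were narrow, with a median width of 756 bp (737 to 781), and lay in H3K4me3 peaks with a median width of 5729 bp (5547 to 6002). Most were satellites of a promoter peak: the promoter of the same gene carried another Spin1 peak in 90.4% of cases, and the gap to the nearest other Spin1 peak was 293 bp at the median (264 to 329). Separate peaks had a median width of 918 bp (876 to 987) under H3K4me3 peaks of 1940 bp (1881 to 2005), and the next Spin1 peak was 4362 bp away (3920 to 4785). The promoter of the same gene carried a Spin1 peak for 62.9% of separate peaks and an H3K4me3 peak for 78.2%. Over the set as a whole, 60.1% of the 2624 peaks (58.3% to 62%) had another Spin1 peak at the promoter of their gene, and 92.5% had H3K4me3 there, genes with several members being counted once for each. Both pooled shares largely follow from the definitions. H3K4me3 was at the promoter for 100% of TSS-spanning and 99.9% of flank peaks. A TSS-spanning peak does not count as its own promoter peak, and 13.5% of these had another. Of all 26180 genes, 13246 had both Spin1 and H3K4me3 at the promoter.

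**Figure D2:**
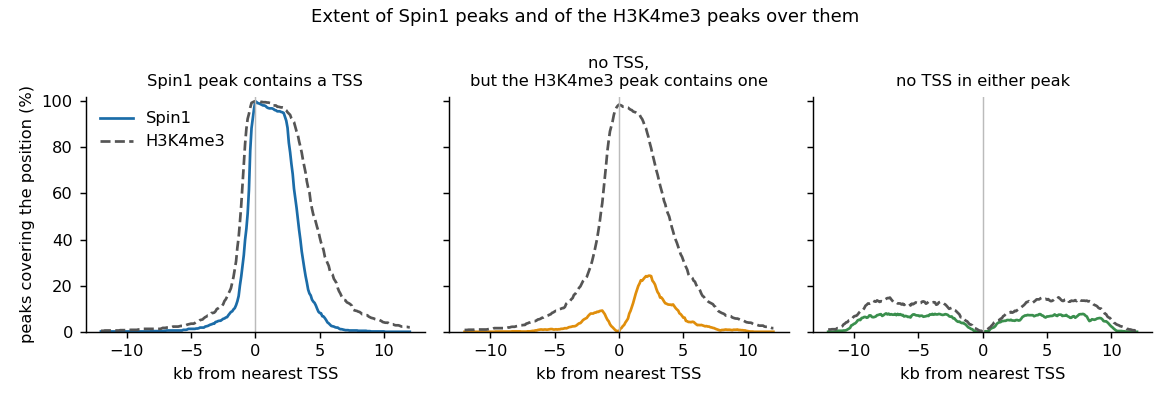
Percentage of Spin1 peaks (solid) and of the H3K4me3 peaks over them (dashed) that cover each position relative to the nearest curated TSS, for the 3 arrangements. In TSS-spanning and flank peaks the H3K4me3 peak reaches over the TSS and beyond the Spin1 peak on both sides, and in separate peaks both are short and leave the TSS free.

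Broad H3K4me3 peaks more often held a member of the set. There were 14028 H3K4me3 peaks with a curated TSS, and 10.3% of them overlapped a member of the set. Of 7553 that were 2 to 4 kb wide, 3.3% did, of 2861 that were 4 to 6 kb wide 20.8%, of 695 that were 6 to 8 kb wide 52.9%, and of 329 that were wider than 8 kb 69.6%. A wider H3K4me3 peak offers more room beyond 1 kb, so that part of this gradient is geometric.

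The H3K4me3 overlap that defined the set was common at this distance. Of 2963 Spin1 peaks at 1 to 10 kb, 88.6% overlapped H3K4me3, and of all Spin1 peaks 91.3% did. The share fell from 98.4% of 707 Spin1 peaks at 1 to 1.5 kb to 78.6% of 786 at 5 to 10 kb.

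Peak strength is given as the MACS score, which is −10 times the log10 of the p-value and piles up at 3100, so that peaks at this value cannot be ranked. The median score was 309.18 (281.32 to 346.34). TSS-spanning peaks reached 3100 or more in 85.4% of cases, flank peaks in 1.38% and separate peaks in 3.54%. At the low end, 42.8% of the set scored under 200, among them 65.3% of flank peaks and 51.1% of separate peaks. Of the 931 peaks narrower than 800 bp, 98.5% scored under 200, and 82.7% had exactly the same width and score as at least 1 other Spin1 peak. One such combination of width and score was shared by 60 Spin1 peaks. The TSS-spanning peaks at Erdr1 (14399 bp, score 185.56, on chromosome Y) and at the pseudogene Pisd-ps2 (6509 bp, score 191.62) were broad and yet scored under 200, and the central bases at Erdr1 were 87.3% repeats. Repeats of width and score mean that the narrow peaks took few distinct values, and the number of reads behind them is not known.

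**Figure D3:**
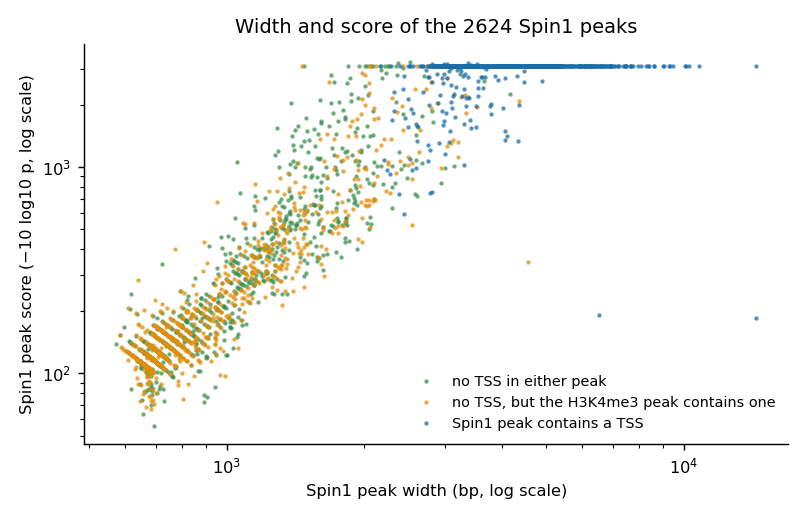
Width (log scale) and MACS score (log scale) of the 2624 Spin1 peaks, coloured by arrangement. Scores rise with width until they reach the value of 3100, at which most TSS-spanning peaks lie, and most narrow peaks are flank or separate peaks under 200.

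The highest scores belonged to Bcl9l (3221.02), Pde4b, a cAMP phosphodiesterase (3208.86), Gm3363 (3177.71), Sync, the intermediate filament protein syncoilin (3165.23), and Crlf2, a cytokine receptor (3153.69). The peaks at Bcl9l and Gm3363 were separate, 3649 and 5914.5 bp upstream, and the other 3 spanned a TSS. As 644 members piled up at exactly 3100, the scores do not show that the peaks above this value were stronger than those. The lowest scores were those at 4930581F22Rik (55.65), Dynlt1a (63.37), Fosl2 (67.11), Jpt1 (68.43) and Tor4a (69.96). At the inner limit, the peaks just inside were centred 1001 bp from the TSS of Des and of Prc1 and 1001.5 bp from that of Fam168b, and those just outside 999 bp from Pgam5, Dap and Chrnd. At the outer limit, Itgav (9999 bp), Gapdh (9979.5 bp) and Abl1 (9938.5 bp) were inside, and Aacs (10018.5 bp) and Ndufa6 (10042.5 bp) were outside. Scores were 3100 at the inner limit for all of these but Chrnd (2717.05), and those of the 5 peaks named at the outer limit were between 102.02 and 140.81.

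The peaks were assigned to 2116 genes, 8.08% of the 26180 genes with a curated transcript, of which 1732 had 1 peak and 384 had 2 to 6. Of the peaks, 88.3% were nearest to a protein-coding gene, 7.55% to a lncRNA and 3.01% to a miRNA, whose annotated start is the hairpin and not the start of transcription. Assignment was by distance alone.

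Marker genes were used to check the label of the cells. All 7 myoblast markers (Myod1, Myf5, Pax7, Cdh15, Des, Vcam1 and Itga7) had Spin1 and H3K4me3 at the promoter, and 6 of them also had a member of the set. Of all 26180 genes with a curated transcript, 13246 had both at the promoter and 8.08% had a member. None of 4 blood markers had either peak. Of 4 endothelial markers, 3 had H3K4me3 and none had Spin1. Of 4 fibroblast markers, all had H3K4me3, 3 had Spin1, and Pdgfra and Col1a1 had a member of the set. Of 3 neuronal markers, all had H3K4me3, Tubb3 had Spin1 and none had a member. Whether other cells in the culture, such as fibroblasts, contributed to the peaks was not tested.

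Genes of muscle determination were frequent hosts. Of 42 regulators of myogenesis, 28 had at least 1 member, with 54 peaks in all, of which 18 spanned a TSS, 27 were flank peaks and 9 were separate. Of the 40 regulators with both Spin1 and H3K4me3 within 1 kb of a TSS, 70% had a member, beside 13.6% of all 13246 genes with both. This list and the others were written with earlier results of these data known, so that the contrast is a description.

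The 5 regulators with the strongest and then widest peaks were Runx1, a RUNX transcription factor (8374 bp), Id2, an inhibitor of bHLH factors (8263 bp), Lbx1, Nfib, a nuclear factor I gene (5410 bp), and Pax7, all with TSS-spanning peaks at 3100. The peak at Id2 was centred 1202.5 bp upstream of the TSS, and those at Runx1 and Nfib 2217 and 1134 bp downstream.

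Pax7, the paired box factor of muscle stem cells, carried 5 members inside a single H3K4me3 peak of 17266 bp. The main peak, chr4:139829102-139834505, spanned the TSS with a width of 5404 bp and a score of 3100. A flank peak lay 3139.5 bp upstream with a score of 229.83, and 3 lay within the gene, 5473.5, 6430.5 and 9156.5 bp downstream, with scores of 103.35, 229.06 and 102.78. All 4 satellites thus scored far below the main peak.

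Myog, the bHLH factor of terminal differentiation, had a TSS-spanning peak at chr1:134289558-134293178 (3621 bp, score 3100), almost as wide as its H3K4me3 peak of 3773 bp. It also had a satellite past the end of the gene at chr1:134293385-134294072 with a score of 117.36, of whose length 1.31% lay under H3K4me3. Myf5, the bHLH factor of myoblast determination, had a single flank peak in an intron, 1885.5 bp from the TSS at chr10:107483822-107484676, with a score of 223.92 inside an H3K4me3 peak of 7449 bp. Myod1 had Spin1 and H3K4me3 at its promoter but no member of the set.

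Id1, an inhibitor of bHLH factors, had a separate peak 8008 bp upstream at chr2:152726641-152729846, with a width of 3206 bp and a score of 3100, a value that 3.54% of separate peaks reached. It nearly coincided with an H3K4me3 peak of 3199 bp. Id1 also had a TSS-spanning peak of 4857 bp and a weak separate peak 5196.5 bp downstream (score 272.98). The paired box gene Pax3 had a separate intronic peak 7438 bp downstream that scored 246.21. Among the nuclear factor I genes, Nfix, a switch from embryonic to fetal myogenesis, had 6 members, spread over 3 H3K4me3 peaks of 7875, 5320 and 3637 bp, with scores between 108.24 and 739.42.

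**Figure D4:**
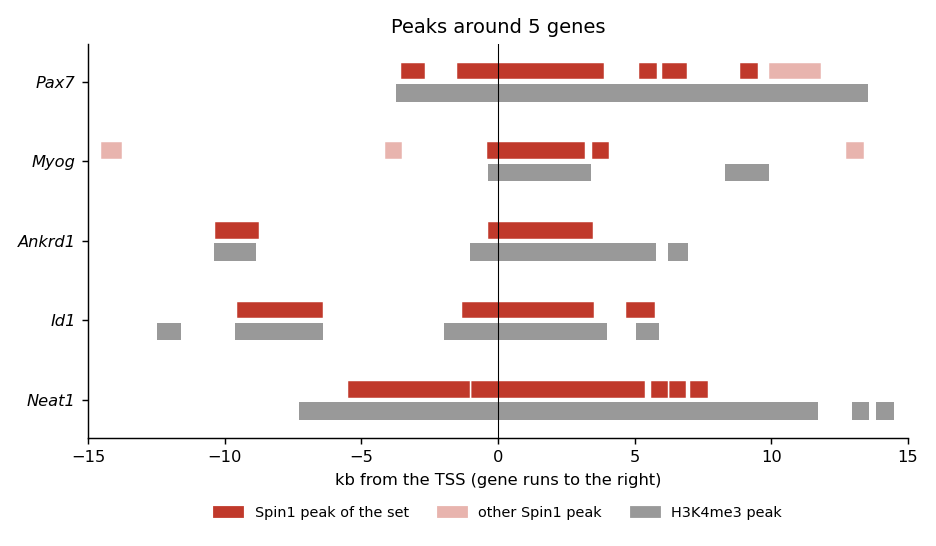
Spin1 peaks (upper bars, dark for members of the set and pale for others) and H3K4me3 peaks (grey, lower bars) in kb from a curated TSS of 5 genes, with the gene running to the right. Pax7 and Neat1 show several members within 1 broad H3K4me3 peak, and Ankrd1 and Id1 show separate peaks 9572 and 8008 bp upstream.

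Contractile genes formed another large group. Of 55 sarcomere and contraction genes, 32 had a member, with 39 peaks, of which 14 spanned a TSS, 20 were flank peaks and 5 were separate. Of the 40 with both marks at the promoter, 75% had a member, beside 13.6% of all 13246 genes with both. The strongest and then widest peaks lay at Myh9, the non-muscle myosin heavy chain (5909 bp), Actn1 and Actn4, non-muscle α-actinins (5325 and 4837 bp), Acta2, smooth-muscle actin (4479 bp), and Pdlim3, a Z-disc protein (3976 bp), all with a score of 3100. Of the striated-muscle genes, Ttn (titin, 3236 bp), Des (desmin, 2780 bp) and Ankrd1 (a titin-associated ankyrin repeat protein, 3868 bp) had TSS-spanning peaks at 3100. Acta1 and Actc1, skeletal and cardiac actin, had flank peaks that scored 993.98 and 585.82.

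The separate peaks of contractile genes were at Neb, Tnnt2, Ankrd1, Tnni1 and Myl4. The peak at Neb, which encodes the thin-filament ruler nebulin, lay 3865 bp downstream and scored 1204.38, and the Neb promoter had no other Spin1 peak. That at Tnnt2, cardiac troponin T, lay 8005.5 bp downstream and scored 825.74. The upstream peak at Ankrd1 lay 9572 bp away and scored 489.6. Tnni1, slow troponin I, and Myl4, an atrial and embryonic myosin light chain, had weaker upstream peaks of 311.09 and 118.27. Fast troponin genes carried mainly weak flank peaks, such as those of Tnni2 (166.36 and 148.05) and Tnnc2 (141.69).

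Adhesion and matrix genes had members in 22 of 31 cases, with 37 peaks. All 31 had both marks at the promoter, and the share was 71%, beside 13.6% of all genes with both. Sparc, a secreted matrix glycoprotein, had the widest of them, 9279 bp with a score of 3100. TSS-spanning peaks at 3100 also lay at Thbs1 (thrombospondin, 5651 bp), at the filamin gene Flna (4859 bp), at the integrin genes Itga7 (5342 bp), Itgb1 (4721 bp) and Itga5 (3907 bp) and at the fibronectin gene Fn1 (4516 bp). Most collagen genes of the list had no TSS-spanning peak in the set, and Col4a1, Col6a1 and Col6a2 had no member. All had Spin1 at the promoter, where peaks centred within 1 kb of a TSS fall outside the set. Col1a1 had 3 flank peaks and 1 separate peak, and Col1a2 had 2 flank peaks, with scores from 103.06 to 202.75. The flank peaks lay inside H3K4me3 peaks of 8411 bp at Col1a1 and 7764 bp at Col1a2. Col3a1 had a flank peak that scored 136.15 and a separate peak that scored 158.8, and Col4a2 had 1 flank peak. Col5a1 was the exception among the collagen genes of the list, with a TSS-spanning peak at 3100.

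Growth factor and signalling genes had a member in 16 of 40 cases, with 18 peaks, none separate. Of the 37 with both marks at the promoter, 43.2% had a member, beside 13.6% of all such genes. Smad7, an inhibitor of TGF-β signalling, had the widest Spin1 peak of the whole set, 14422 bp inside an H3K4me3 peak of 25285 bp. Irs1, the insulin receptor adaptor (9487 bp), Smad6, an inhibitor of BMP signalling (6263 bp), the Notch ligand gene Dll1 (4971 bp), and the ligand genes Tgfb3, Tgfb2 and Tgfb1 (4387, 4109 and 3438 bp) had TSS-spanning peaks at 3100. Egfr and Smad3 had narrow flank peaks of 715 and 702 bp, with scores of 125.03 and 80.63.

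Of 22 immediate early transcription factor genes, 11 had a member, with 17 peaks. All 22 had both marks at the promoter, so that the share was 50% beside 13.6% of all such genes. Myc (6883 bp), Klf6 (6319 bp), Egr1 (5010 bp), Ier5 (3776 bp) and Fosl1 (3360 bp) had TSS-spanning peaks at 3100. Fos had a flank peak 1538 bp upstream that scored 162.66. Jund had a peak of 2818 bp at 3100 that counted as separate, because its H3K4me3 peak of 4166 bp stopped short of the curated TSS, and its promoter had no other Spin1 peak. Fosb had 2 weak separate peaks, 6760.5 and 9866.5 bp upstream (86.03 and 106.2), beside a stronger flank peak (1718.54).

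Of 19 genes of glycogen metabolism and AMPK signalling, 18 had both marks at the promoter and 1 of these had a member, 5.56% beside 13.6% of all genes with both. The share among all 19 had a wide interval (5.26%, 0.935% to 24.6%). The gene with a member was Pgm1, a phosphoglucomutase, with a flank peak 1988.5 bp from the TSS, 787 bp wide and with a score of 138.84. A list of 7 genes held Spin1 itself, Spin2c, Spin4 and genes linked to Spin1 by earlier work. Among the linked genes, Gdnf, a neurotrophic ligand (4060 bp, score 1492.78), and Maz, a zinc finger factor (3049 bp, score 3100), had TSS-spanning peaks. Of the 6 genes of this list with both marks at the promoter, 33.3% had a member, beside 13.6% of all such genes. With so few genes, the share among all 7 had a wide interval (28.6%, 8.22% to 64.1%).

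Across all genes, those with many members were Nfix and Mbnl2 with 6 each and, like Pax7, Neat1 with 5. Mbnl2, a muscleblind splicing regulator, had 4 separate peaks in an intron upstream of an internal start site, 3 of them under a single H3K4me3 peak of 5656 bp. Neat1, the lncRNA scaffold of paraspeckles, had all 5 inside an H3K4me3 peak of 18965 bp.

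By annotation of the peak centre, 64.7% of the set lay in introns (62.9% to 66.6%), 50% in a first intron, 22.2% between genes, 9.22% in coding sequence and 2.97% in UTRs. For all Spin1 peaks, these shares were 54.2%, 44.7%, 21.1%, 10.7% and 12.5%, and 52.8% of promoter peaks lay in a first intron. The intron share of the set was 9.56 percentage points above that of promoter peaks (95% Newcombe interval 7.49 to 11.6) and 24.3 points above that of distal peaks (21.5 to 27). Relative to H3K4me3 peaks without Spin1 at the same distance, it was 10.1 points higher (7.79 to 12.5). Position enters the choice of these classes, so that these differences partly restate the distance. Separate peaks were intronic in 40.6% of cases and intergenic in 45.4%, and their intron share was not separated from that of distal peaks (difference 0.20 points, -3.58 to 4.04).

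Start sites of predicted transcripts, which the rule did not use, lay inside 20.4% of the peaks (18.9% to 21.9%). The share was 40.8% in all Spin1 peaks and 56.7% in promoter peaks. It was 49.6% in TSS-spanning peaks, which already hold a curated TSS. For separate peaks the share was 11.8%, or 107 peaks, which was 5.74 points above that of H3K4me3 peaks without Spin1 (3.65 to 8.11) and not separated from that of distal peaks (-2.87 to 2.19). These 107 peaks lay over a possible start site that the curated annotation lacks.

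The set was less CpG-rich than promoters. A CpG island, defined as 200 bp with at least 50% GC and an observed to expected CpG ratio of at least 0.6, lay inside 58.5% of the peaks and inside 96.4% of promoter peaks, a difference of -37.9 points (-39.9 to -36). Among the upper 50% of peaks by score in both lists the shares were 95.5% and 99.4%, a difference of -3.94 points (-5.57 to -2.71). With distance taken from the nearer edge they were 42.4% and 95.8%, a difference of -53.4 points (-55.7 to -51.1). An island lay inside 40.4% of H3K4me3 peaks without Spin1, 18.1 points fewer than in the set (15.7 to 20.5). That difference was 7.21 points with scores of at least 100 in both lists, 6.41 points among the upper 50% by score and 3.23 points with distance taken from the nearer edge (0.50 to 5.97). Wide peaks offer more room for an island, and the share was 95.4% in TSS-spanning peaks, 59.7% in separate peaks and 31.6% in flank peaks. The central 300 bp has the same length in every peak, but the rule keeps its centre more than 1 kb from a curated TSS in the set. The contrast with promoter peaks is thus partly set by the rule. In this window, the median GC content was 51.7% (51.3% to 52%), against 62.7% for promoter peaks, 52.7% for distal peaks and 52% for H3K4me3 peaks without Spin1.

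Among the 3 arrangements, separate peaks were the most CpG-rich by their centres. The rule keeps all centres more than 1 kb from a curated TSS, so that TSS-spanning and flank peaks are centred off their promoter. This order thus partly follows from the rule. Over whole peaks, an island lay inside 95.4% of TSS-spanning, 59.7% of separate and 31.6% of flank peaks. A CpG ratio of at least 0.6 was found at the centre of 34.2% of separate peaks, 24.2% of TSS-spanning peaks and 14.8% of flank peaks. Separate peaks exceeded TSS-spanning peaks by 9.99 points (5.53 to 14.4), flank peaks by 19.4 points (15.6 to 23.1), distal peaks by 7.37 points (3.79 to 11) and H3K4me3 peaks without Spin1 by 15.2 points (12 to 18.6). All 3 arrangements were below promoter peaks (68.7%).

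Motif matches in the central 300 bp differed from promoters in a similar way. AP-1 matches (TGANTCA) occurred in 9.64% of the set (8.57% to 10.8%), beside 7.00% of all Spin1 peaks and 7.81% of 32851 RefSeq promoters of 300 bp. This was 5.99 points above promoter peaks (4.86 to 7.23) with a difference of -3.99 points from distal peaks (-5.85 to -2.17), and it was not separated from H3K4me3 peaks without Spin1 (-2.09 to 0.80). In windows of 45% to 55% GC, the share was 11% in the set, 5.5% in promoter peaks and 15.8% in distal peaks, so that the order was the same at matched GC. Among the upper 50% by score in both lists, the difference from distal peaks changed sign, with 7.5% in the set against 3.98% (3.52 points, -0.49 to 6.3). It was -2.24 points with distance from the nearer edge and -6.57 points in windows of 500 bp.

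TEAD core matches (GGAATG) occurred in 16% of the set (14.6% to 17.4%), beside 13.1% of all Spin1 peaks and 14.7% of RefSeq promoters. The share was 5.2 points above promoter peaks (3.72 to 6.76), but in windows of 45% to 55% GC the difference was 2.09 points and its interval included 0 (-0.55 to 4.87). It was not separated from distal peaks (-3.62 to 0.64) or from H3K4me3 peaks without Spin1 (-1.59 to 1.94).

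The E-box CAGCTG occurred in 16.9% of the set, beside 16.8% of all Spin1 peaks and 16.3% of RefSeq promoters. It was less frequent than in distal peaks (difference -5.87 points, -8.16 to -3.6) and than in H3K4me3 peaks without Spin1 (-5.68 points, -7.55 to -3.77). In the class without Spin1, the window was centred on the H3K4me3 peak and not on a Spin1 peak. The median H3K4me3 score was 149.65 in that class and 3100 for the H3K4me3 peaks over the set. The part of window placement and of score in the E-box differences was not tested. Against promoter peaks the difference was 1.75 points (0.20 to 3.37). The share in the set was thus near that of all Spin1 peaks. The E-box CAGGTG was found in 17.9% of the set, 19.7% of all Spin1 peaks and 20.2% of RefSeq promoters, and was also less frequent than in H3K4me3 peaks without Spin1 (difference -4.96 points, -6.86 to -3.02).

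Among motifs of promoter factors, the GC box and the ETS site were scarcer than at promoter peaks, and CCAAT was more frequent. The GC box GGGCGG, bound by SP and KLF factors, was found in 19.3% of the set and 48.4% of promoter peaks, beside 37% of all Spin1 peaks and 35.7% of RefSeq promoters. The ETS site CCGGAAG was found in 3.62% and 9.37%, beside 7.28% and 8.86%. CCAAT was found in 30.4% of the set and 22.7% of promoter peaks, a difference of 7.63 points (5.73 to 9.58). Its share was 25.5% in all Spin1 peaks and 37.4% in RefSeq promoters. Among the arrangements, separate peaks had the most GC boxes (26.1%) and ETS sites (5.98%), and exceeded flank peaks by 12.1 points (8.51 to 15.7) and 3.51 points (1.72 to 5.42). The RUNX site TGTGGT was found in 17.8% of the set and in 11.2% of promoter peaks, a difference of 6.65 points (5.11 to 8.27), beside 14% of all Spin1 peaks and 16.8% of RefSeq promoters. MEF2 sites were found in 3.16% of the set and 1.12% of promoter peaks, beside 1.88% of all Spin1 peaks and 3.19% of RefSeq promoters, and in 5.07% of TSS-spanning peaks. SRF (CArG) sites were found in 1.41% of the set, 1.07% of all Spin1 peaks and 1.63% of RefSeq promoters, and CTCF sites in 0.343%, 0.181% and 0.557%. The GC box, ETS, CCAAT, MEF2, SRF and CTCF sites were not compared at matched GC. The median GC of the windows was 51.7% in the set and 62.7% in promoter peaks, and its part in these differences was not tested. A match describes the letters and not binding of the factor. In all, 216 such differences were computed without adjustment for their number.

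**Figure D5:**
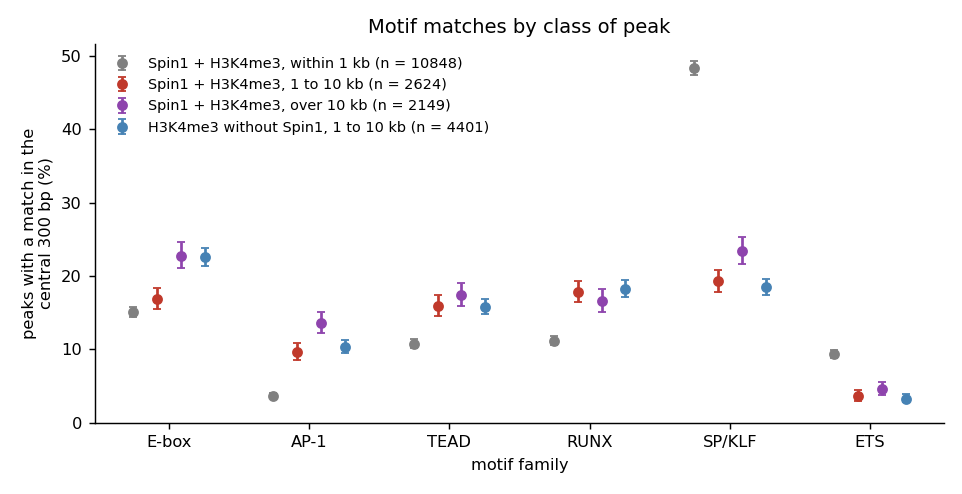
Percentage of peaks with at least 1 match in the central 300 bp for 6 motif families, by class of peak, with 95% Wilson intervals. For AP-1, TEAD and RUNX the set (red) lies above promoter peaks (grey), for SP/KLF and ETS it lies below them, and for the E-box CAGCTG it lies below distal peaks (purple) and H3K4me3 peaks without Spin1 (blue).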

How the data were processed

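Spin1 and H3K4me3 were profiled by ChIP-seq in 1 library of primary myoblasts each, with input as control. The authors aligned reads to mm10 with Bowtie2, called peaks with MACS 1.4.2 against input, and deposited for each peak its position and a score, −10 times the log10 of the MACS p-value. Reads per peak are not given in the sources used here, so depth is unknown.

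Curated transcripts of RefSeq on GRCm38.p6 (45756 transcripts, 26180 genes) gave the TSSs. Distances ran from the peak centre, ties went to the lower position, and gene symbols were those of RefSeq. Sequence features were computed with pysam 0.24.0, numpy 2.4.6 and pandas 2.3.3 in the central 300 bp, and CpG islands over the whole peak. The centre was that of the Spin1 peak, or of the H3K4me3 peak in the class without Spin1. Shares have 95% Wilson intervals, differences Newcombe intervals, and medians order-statistic intervals, which cover counting error only (scipy 1.17.1). The functions for distance, overlap, islands and the Newcombe interval were tested on simulated data. By rule, the genes named were, for each of 7 lists, those of up to 5 peaks with the highest score and then width, those of the 5 highest and 5 lowest scores, the 3 peaks on either side of each distance limit, and the 5 genes with the most peaks. The sequence rule took, for each list, the peak with the highest score and then width whose central window lay outside exons and outside chromosome 18. This passed over Smad7, and 1 of the 7 sequences it picked is not reported here. All other genes named with values, among them Myog, Myf5, Id1, Pax3, Ankrd1, Ttn, the troponins, the collagens, Tgfb1, Tgfb2, Fos, Fosb, Jund, Erdr1 and Pisd-ps2, fell outside this rule and were picked with their values known. The members and lists were chosen with earlier results of these data known. Some genes that the rule names are likewise not reported. The alternatives were protein-coding TSSs only, curated and predicted TSSs, at least 50% of the Spin1 peak covered by H3K4me3, a score of at least 100 or the upper 50% by score in both lists, distance from the nearer peak edge, and for motifs a window of 500 bp, matches outside repeats and windows of 45% to 55% GC. The same alternatives for the differences between classes were chosen after seeing the data.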

Additional observations from a re-analysis of the deposited data

How the results depend on the processing

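No paired analysis was possible because there was 1 library per antibody and no replicate. Of 129 values under alternatives, 94 stayed within the main interval, within 1.5 times the main count, or, for differences, kept their sign and whether their interval included 0. With only the upper 50% by score in both lists, 840 peaks remained, and the shares became 13.1% upstream, 87.9% reaching TSS±1 kb, 89.2% with H3K4me3 over the nearest TSS, 13% with another Spin1 peak at the promoter, 73.7% in introns, 46.7% with a predicted TSS, 95.5% with a CpG island, 13.9% with CAGCTG and 7.5% with TGANTCA. The difference in TGANTCA from distal peaks then changed sign, to 3.52 points (-0.487 to 6.3). Measured from the nearer edge, which removes TSS-spanning peaks, 1749 peaks remained, with 33.5% upstream, 0% reaching TSS±1 kb, 47.2% with H3K4me3 over the TSS, 80.2% with a promoter Spin1 peak, 58.5% in introns, 8.29% with a predicted TSS, 42.4% with an island and 11.3% with TGANTCA. With predicted TSSs added, these were 32.3% reaching TSS±1 kb, 57% with H3K4me3 over the TSS, 56.7% with a promoter Spin1 peak, 60.9% in introns, 10.1% with a predicted TSS, 53.8% with an island and 18.5% with CAGCTG. A score of at least 100 gave 67.1% with H3K4me3 over the TSS and 60.8% with an island, and protein-coding TSSs gave 62.1% with a promoter Spin1 peak. In windows of 500 bp, matches rose to 26.7% (CAGCTG), 25% (GGAATG) and 14.1% (TGANTCA). At 45% to 55% GC, TGANTCA was found in 11% of the windows, and the excess of GGAATG over promoter peaks fell to 2.09 points with an interval that included 0. Apart from the construction of each alternative, the cause of these shifts was not tested.

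The main limits are a single library per antibody, scores that pile up at 3100, narrow peaks whose read numbers are unknown, and gene assignment by distance. The depth of both libraries is unknown, and its part in the width and number of peaks was not tested.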

Other observations

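The share of Spin1 peaks that belonged to the set ranged among autosomes from 13% of 1064 peaks on chromosome 5 to 18.3% of 734 on chromosome 15 (Wilson intervals 11.1% to 15.1% and 15.6% to 21.2%). It was lower than on any autosome on the X chromosome, at 8.03% of 411 peaks (5.77% to 11.1%), where Flna, which encodes the actin cross-linker filamin A, had 3 members. The cause of the lower share was not tested.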
